A study of Mus musculus with 33 samples.

Results

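Loss of Hp1β was examined in mouse embryonic stem cells (ESCs) that already lacked Hp1α. Hp1α/βΔ/Δ ESCs, in which both paralogs are disrupted, were set against Hp1αΔ/Δ ESCs by RNA-seq, and these groups account for 6 of the 33 libraries of the series, 3 for each genotype. Both lines carry the Hp1α mutation, so the groups differ in their labels by the Hp1β mutation alone, and the Hp1γ gene is not labelled as altered in either. The lines are C57BL/6 ESCs edited with paired guide RNAs in a Cas9 plasmid, selected with puromycin and picked as individual clones. They were cultured on mitotically inactive embryonic fibroblasts with serum and LIF, and feeders were depleted by a short plating step before use. The sources do not say how many clones stand behind the 3 libraries of a genotype, or from which line the double mutant was made, so the Hp1β genotype and the clone cannot be told apart. P-values therefore measure the spread between these libraries, which may be technical. For the comparison with Hp1β loss in cells that keep Hp1α, 3 libraries of Hp1βΔ/Δ ESCs and 3 of wild-type ESCs (wild-type set A) were used, and no library was shared between the 2 comparisons. Total counts were 19714459 to 24423041 in each of the 12 libraries.

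HP1 proteins are small chromatin proteins with a chromodomain, which binds methylated lysine 9 of histone H3 (H3K9me), and a chromoshadow domain, through which they form dimers and contact other proteins. Mammals have 3 paralogs, HP1α, HP1β and HP1γ, encoded by Cbx5, Cbx1 and Cbx3. They are known as readers of heterochromatin marks laid down by SUV39H, SETDB1 and EHMT enzymes, and in ESCs this system takes part in silencing of transposons, germline genes and genes of differentiated lineages.

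The study's guides for the 2 mutated genes are shown because they define the genotypes compared. They are written 5′ to 3′, and capitals mark the 10 bases next to the PAM, where a guide tolerates mismatches least.
HP1α upstream guide: ctcgccagttCTGCCGAGAT
HP1α downstream guide: ggctgagtgaGAACTAGTAG
HP1β upstream guide: tactaggaaaGTCTAGCGAT
HP1β downstream guide: tcttgcatagAAGCCTAGGC
The HP1β upstream guide matched the plus strand at chr11:96801311-96801330 of GRCm38, inside intron 2 of transcript Cbx1-201, and TGG, a PAM of the NGG form, follows it there. It was found through Cbx1-205, a transcript that retains this intron and the only 1 of 5 annotated Cbx1 transcripts with the site in an exon. The other 3 guides matched no annotated GENCODE M21 transcript on either strand and were not placed in the genome here.

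The transcripts of the HP1 genes were examined first, as a check of the labels. Levels are in CPM, the counts of a gene for every 1 M counts of its library with TMM scaling. Cbx1 (ENSMUSG00000018666, chromosome 11 of GRCm38, 96789127 to 96808640) had 95.5, 96.7 and 93.1 CPM in Hp1α/βΔ/Δ and 459.7, 446 and 451 CPM in Hp1αΔ/Δ libraries. Each Hp1α/βΔ/Δ library thus lay far below each Hp1αΔ/Δ library, a log2 fold change of −2.25 (standard error, SE, 0.0347, adjusted p = 5.16e-17, quasi-likelihood F test of edgeR, Benjamini-Hochberg adjusted, as for every adjusted p that follows). The tables hold 1 value for each gene and do not show from which exons the remaining Cbx1 counts came. Hp1βΔ/Δ ESCs had 101 ± 6.57 CPM (SD, n = 3) and wild-type ESCs 431 ± 8.09 CPM (SD, n = 3). Cbx5, disrupted in both groups, had 198, 197 and 204 CPM in Hp1α/βΔ/Δ and 173, 177 and 175 CPM in Hp1αΔ/Δ libraries. Its log2 fold change was 0.19 (adjusted p = 0.000519), and its level in both groups lay below the 476 ± 6.02 CPM (SD, n = 3) of wild-type ESCs. Cbx3 had 199.7, 184 and 164 CPM in Hp1α/βΔ/Δ and 219.6, 199.8 and 206 CPM in Hp1αΔ/Δ libraries. Every Hp1α/βΔ/Δ value of Cbx3 was below the lowest Hp1αΔ/Δ value, with a log2 fold change of −0.19 (adjusted p = 0.0136). The difference did not pass the test without Hp1α/βΔ/Δ replicate 3 (−0.12, adjusted p = 0.061), without Hp1αΔ/Δ replicate 1 (−0.15, adjusted p = 0.084) or with limma on log2 TPM (adjusted p = 0.0948). No rise of Cbx3 was therefore measured on loss of Hp1β in this background, whereas in Hp1βΔ/Δ ESCs it was 0.21 on the log2 scale above wild-type (adjusted p = 0.00311). The 2 responses of Cbx3 differed by −0.41 (adjusted p of the interaction = 0.000534). Setdb1, the H3K9 methyltransferase that the study also deleted, had a log2 fold change of −0.07 (adjusted p = 0.133).

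**Figure D1:**
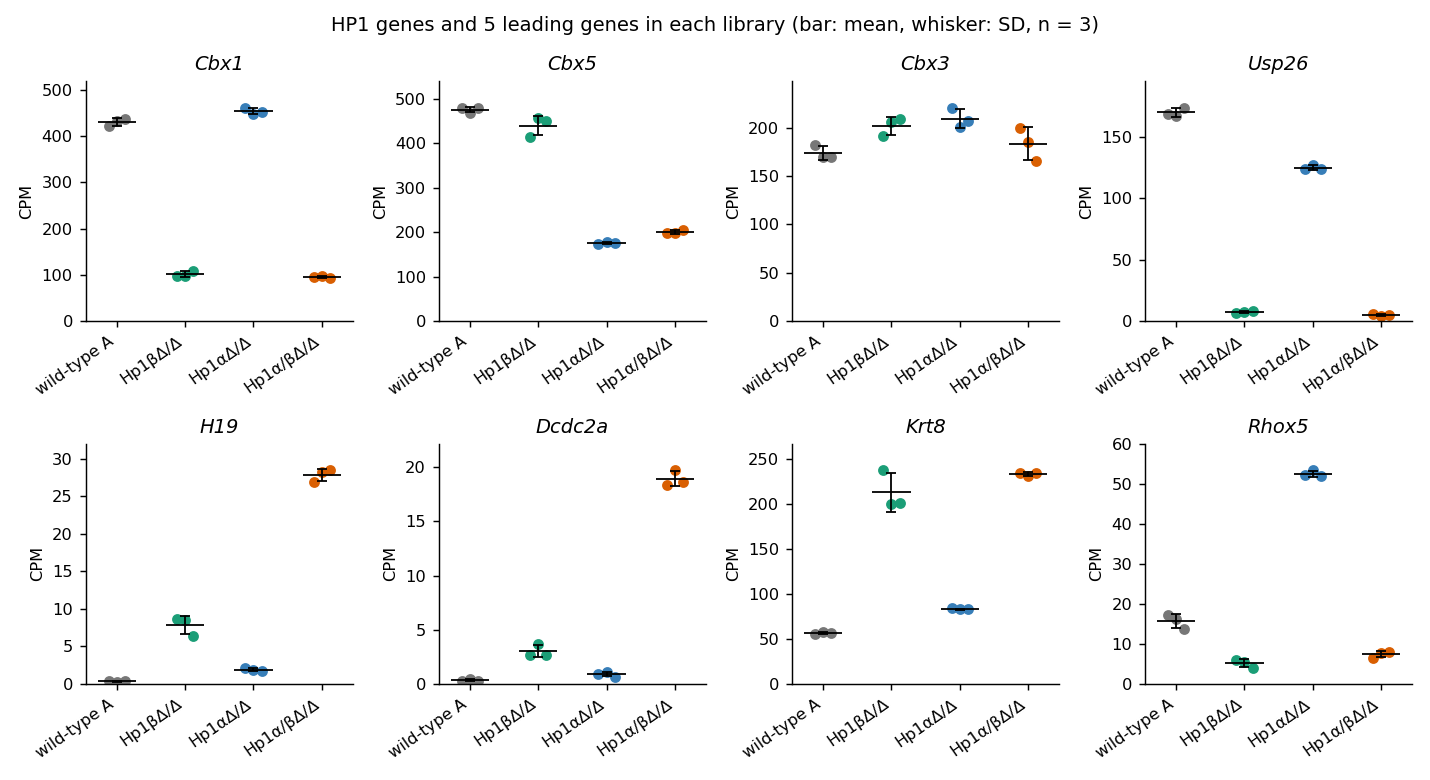
Level in CPM (linear axis from 0) of Cbx1, Cbx5, Cbx3 and 5 genes that changed most or are abundant, in wild-type A, Hp1βΔ/Δ, Hp1αΔ/Δ and Hp1α/βΔ/Δ libraries. Points are libraries, bars means and whiskers SD (n = 3). Cbx1 has a mean of 95.5 CPM in Hp1α/βΔ/Δ and 454 CPM in Hp1αΔ/Δ libraries when all 12 libraries are scaled together, and H19 is highest in Hp1α/βΔ/Δ libraries.

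All 6 libraries carried ESC markers. The 10 markers examined, among them Pou5f1, Nanog, Sox2 and Esrrb, summed to 4333 to 4464 CPM in Hp1α/βΔ/Δ and 3913 to 3995 CPM in Hp1αΔ/Δ libraries, and none was at 0. The 20 feeder fibroblast markers summed to 152 to 164 CPM in Hp1α/βΔ/Δ and 116 to 120.01 CPM in Hp1αΔ/Δ libraries. The groups did not overlap in this sum, with 1 or 2 of the 20 markers at 0 in each library, so each result for collagen or other fibroblast genes has this difference beside it. Among the 17 tested fibroblast markers 2 were called higher and 2 lower, where 2.16% and 2.03% of all tested genes were. Col1a1 had 1.12 and Pdgfrb 1.18 on the log2 scale, but Col5a2 had −2.22 and Fbn1 −1.07. Without Hp1α/βΔ/Δ replicate 2 Pdgfrb was no longer called (log2 0.97, adjusted p = 0.0531). In bulk RNA, fewer cells of a type and less RNA per cell cannot be told apart. Pearson's r of log2 CPM was 0.995 to 0.996 within a genotype and 0.986 to 0.987 between genotypes.

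Calls required an adjusted p below 0.05 together with a log2 fold change beyond 1 in either direction. Of 15751 tested genes 661 were called (4.2%), of which 341 were higher (2.16%) and 320 lower (2.03%) in Hp1α/βΔ/Δ than in Hp1αΔ/Δ ESCs. Without the fold threshold 5592 genes passed (35.5%), 2843 higher (18%) and 2749 lower (17.5%), so most of the measured differences were smaller than 2-fold. The median log2 fold change of all tested genes was 0.0025. Among called genes the median was 1.31 for rises and −1.44 for falls, and 60 rises and 68 falls exceeded 2 on the log2 scale. Called genes were mostly weakly expressed, with a median of 2.67 CPM in the higher group against 19.2 CPM over all tested genes. The 2 groups did not overlap for 645 of the 661 called genes, where 46.3% of all tested genes had groups that did not overlap. With 3 libraries against 3, an exact two-sided permutation test of 1 gene cannot give a p below 0.1, and the calls rest on the fit across all genes. When at least 10 counts were asked of every library, 419 genes were called (218 higher and 201 lower), and with limma on log2 TPM 199 were called.

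**Figure D2:**
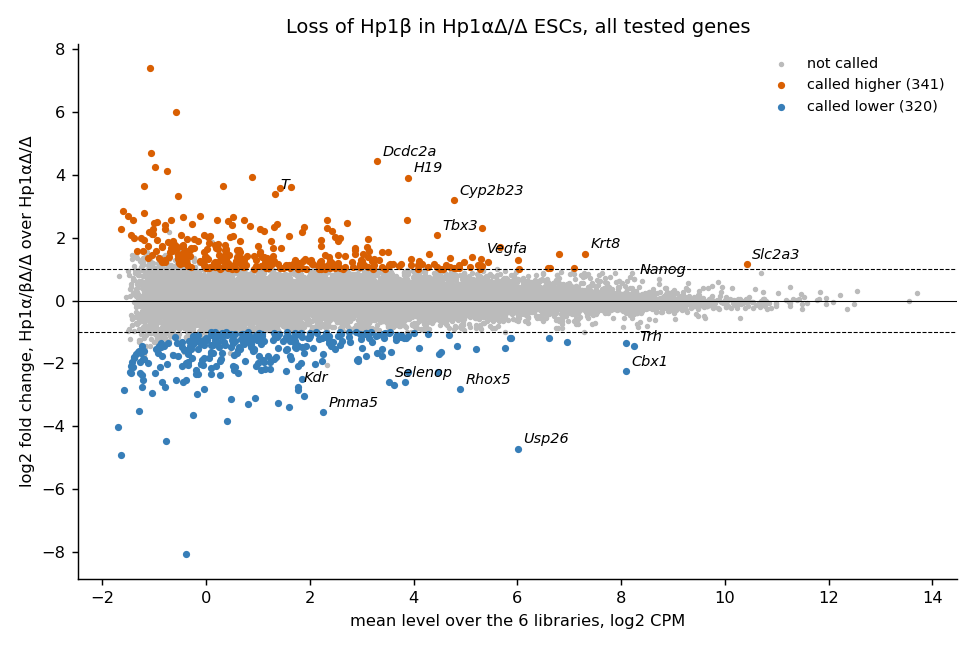
Log2 fold change of Hp1α/βΔ/Δ over Hp1αΔ/Δ ESCs (vertical axis) against the mean level over the 6 libraries in log2 CPM (horizontal axis) for the 15751 tested genes. Orange points are the 341 genes called higher, blue points the 320 called lower, grey points the rest, and dashed lines mark a log2 fold change of 1 and −1. Most called genes lie at low levels, and Slc2a3, Krt8, Trh and Cbx1 are called at high ones.

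The 12 largest rises were taken among called genes with at least 5 CPM in the higher group, no overlap of groups and a symbol not of a predicted gene, and the 12 largest falls likewise. Dcdc2a, which encodes a doublecortin-domain protein that binds microtubules, had 18.4, 19.7 and 18.5 CPM in Hp1α/βΔ/Δ and 0.905, 1.04 and 0.654 CPM in Hp1αΔ/Δ libraries. It was near the detection limit in every Hp1αΔ/Δ library and clearly expressed in every Hp1α/βΔ/Δ library, with a log2 fold change of 4.43 (SE 0.153, adjusted p = 2.12e-12). H19, the imprinted long noncoding RNA, had 26.8, 28.1 and 28.2 CPM in Hp1α/βΔ/Δ and 2.08, 1.77 and 1.68 CPM in Hp1αΔ/Δ libraries and a log2 fold change of 3.91 (SE 0.113, adjusted p = 2.06e-13). The cytochrome P450 gene Cyp2b23 had 52, 48 and 48.1 CPM in Hp1α/βΔ/Δ and 5.56, 4.02 and 6.59 CPM in Hp1αΔ/Δ libraries. Its groups stood apart about 9.15-fold (3.20 on the log2 scale), although reads shared with close paralogs make the values of this family uncertain. Arntl2, a paralog of the clock gene Bmal1, had 63.6, 69.6 and 66.3 CPM in Hp1α/βΔ/Δ and 14.8, 13.1 and 12 CPM in Hp1αΔ/Δ libraries and a log2 fold change of 2.32.

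Further genes were among these 12 largest rises. Nefm, a neurofilament subunit, had 25.2 ± 1.65 CPM (SD, n = 3) in Hp1α/βΔ/Δ against 4.24 ± 0.37 CPM (SD, n = 3) in Hp1αΔ/Δ ESCs (log2 2.57). The vitamin C transporter gene Slc23a1 had 8.57 ± 0.562 CPM (SD, n = 3) in Hp1α/βΔ/Δ against 1.46 ± 0.318 CPM (SD, n = 3) in Hp1αΔ/Δ ESCs (log2 2.55), and Acta1, the skeletal muscle actin, 6.2 ± 0.353 CPM (SD, n = 3) in Hp1α/βΔ/Δ against 1.23 ± 0.133 CPM (SD, n = 3) in Hp1αΔ/Δ ESCs (log2 2.33). Dlx3, a homeobox gene of placenta and epidermis, had 8.32 ± 0.579 CPM (SD, n = 3) in Hp1α/βΔ/Δ against 1.67 ± 0.493 CPM (SD, n = 3) in Hp1αΔ/Δ ESCs (log2 2.31). Adgrg6, an adhesion G protein-coupled receptor, and Septin4, a septin GTPase, had log2 fold changes of 2.17 and 2.01. Rpl39l, a copy of a ribosomal protein gene known from male germ cells, had a log2 fold change of 2.47, with the same doubt over shared reads. For all 12 genes every Hp1α/βΔ/Δ library lay above every Hp1αΔ/Δ library, which the rule for naming them required. Of predicted genes with at least 5 CPM in the higher group and no overlap of groups, Gm49394, D630039A03Rik and 1700095A21Rik rose most (3.61, 2.21 and 1.59 on the log2 scale). Gm49394 overlaps Igf2 on the same strand of chromosome 7, so their reads may not be told apart.

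The largest of these falls was that of Usp26, an X-linked deubiquitinase gene known from testis. It had 5.53, 3.95 and 4.9 CPM in Hp1α/βΔ/Δ and 123, 127 and 123 CPM in Hp1αΔ/Δ libraries. The fold change was 26-fold (−4.71 on the log2 scale, SE 0.0761, adjusted p = 5.45e-17). Rhox5, the founding gene of an X-linked homeobox cluster of the reproductive tract, had 6.49, 7.77 and 7.81 CPM in Hp1α/βΔ/Δ and 52.2, 53.1 and 51.8 CPM in Hp1αΔ/Δ libraries and a log2 fold change of −2.82 (adjusted p = 9.17e-14). Its neighbours Rhox6 and Rhox9, which lie 18 and 90.2 kb from it, had log2 fold changes of −1.41 and −1.497. Of 8 tested genes in the list of X inactivation and X-linked germline genes 5 were called lower and none higher, against 2.03% and 2.16% of all genes, with a median of −1.46 against 0.0025 over all genes. The fifth was Xlr3a (−2.19), whose family shares near-identical copies. Xist and Tsix, the RNAs that control X inactivation, had 1.604 and 0.772 CPM in Hp1α/βΔ/Δ ESCs and log2 fold changes of 0.05 (adjusted p = 0.928) and 0.14 (adjusted p = 0.886). Over chromosome X as a whole 28 of 550 tested genes were called lower (5.09%) and 10 higher (1.82%), with a median log2 fold change of −0.096. The medians of the autosomes lay between −0.049 and 0.087. Their shares called lower ran from 0.976% on chromosome 12 to 3.97% on chromosome 18, where 1.24% were called higher. Without Hp1αΔ/Δ replicate 2 the median of chromosome X was −0.066.

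Pnma5 and Nxf3, both X-linked, had 0.736 ± 0.152 CPM (SD, n = 3) in Hp1α/βΔ/Δ against 8.76 ± 0.697 CPM (SD, n = 3) in Hp1αΔ/Δ ESCs (log2 −3.55) and 0.829 ± 0.117 CPM (SD, n = 3) in Hp1α/βΔ/Δ against 5.96 ± 1.01 CPM (SD, n = 3) in Hp1αΔ/Δ ESCs (log2 −2.84). Cyct, the testis form of cytochrome c, had 4.77, 3.95 and 3.37 CPM in Hp1α/βΔ/Δ and 24.9, 24.5 and 23.5 CPM in Hp1αΔ/Δ libraries and a log2 fold change of −2.60. Cdh9, a cadherin, had 5.51 ± 0.343 CPM (SD, n = 3) in Hp1αΔ/Δ and 0.53 ± 0.176 CPM (SD, n = 3) in Hp1α/βΔ/Δ ESCs. Kdr, the VEGF receptor of endothelial and mesodermal precursors, had 5.95 ± 0.437 CPM (SD, n = 3) in Hp1αΔ/Δ and 0.869 ± 0.46 CPM (SD, n = 3) in Hp1α/βΔ/Δ ESCs. Gfra1, the receptor for the growth factor GDNF, had 2.74, 3.21 and 3.93 CPM in Hp1α/βΔ/Δ and 20.1, 22.8 and 20.7 CPM in Hp1αΔ/Δ libraries and a log2 fold change of −2.68. Selenop, which encodes the selenium carrier of plasma, had 2.94, 4.03 and 2.77 CPM in Hp1α/βΔ/Δ and 21, 19.4 and 19.2 CPM in Hp1αΔ/Δ libraries and a log2 fold change of −2.60. Gbp4 and Abca1, an interferon-inducible GTPase gene and the cholesterol exporter gene, had log2 fold changes of −2.49 and −2.07. With limma on log2 TPM Abca1 had −0.40 (adjusted p = 0.295), and its TPM groups overlapped, with 0.59, 0.74 and 0.24 TPM in Hp1α/βΔ/Δ and 1.68, 0.82 and 0.62 TPM in Hp1αΔ/Δ libraries. Of predicted genes with at least 5 CPM in the higher group and no overlap of groups, Gm48551, 4930586N03Rik and Gm14565 fell most, by 3.03, 2.26 and 2.26 on the log2 scale, and Gm48551 had −4.61 without Hp1α/βΔ/Δ replicate 2.

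Some abundant transcripts were called too. Slc2a3, the neuronal and embryonic glucose transporter GLUT3, had 1897, 1864 and 1916 CPM in Hp1α/βΔ/Δ and 861, 847 and 833 CPM in Hp1αΔ/Δ libraries. No other called rise had a higher mean level, and its log2 fold change was 1.16 (SE 0.0247, adjusted p = 3.38e-15). Krt8 and Krt18, partner keratins of simple epithelia whose genes lie 23.7 kb apart on chromosome 15, rose together. Krt8 had 234, 231 and 233 CPM in Hp1α/βΔ/Δ and 83.5, 82.2 and 82.7 CPM in Hp1αΔ/Δ libraries. Krt18 had 167, 168 and 159.8 CPM in Hp1α/βΔ/Δ and 59.9, 56.4 and 60.9 CPM in Hp1αΔ/Δ libraries. Their log2 fold changes were 1.49 and 1.48. Sfn, the epithelial 14-3-3 sigma gene, and Pcmtd1 had log2 fold changes of 1.03 and 1.03, close to the threshold. Sfn was no longer called without Hp1αΔ/Δ replicate 1 (0.97), nor Pcmtd1 without Hp1αΔ/Δ replicate 3 (0.996) or Hp1α/βΔ/Δ replicate 1 (0.98). Of abundant genes that fell, Trh, the precursor of thyrotropin-releasing hormone, had 159, 162 and 166 CPM in Hp1α/βΔ/Δ and 444, 431 and 449 CPM in Hp1αΔ/Δ libraries and a log2 fold change of −1.44. The bicarbonate cotransporter gene Slc4a4 had 155 ± 9.33 CPM (SD, n = 3) in Hp1α/βΔ/Δ against 392 ± 8.68 CPM (SD, n = 3) in Hp1αΔ/Δ ESCs (log2 −1.34), and Nav2, a neuron navigator gene, 70.9 ± 6.3 CPM (SD, n = 3) in Hp1α/βΔ/Δ against 178 ± 1.98 CPM (SD, n = 3) in Hp1αΔ/Δ ESCs (log2 −1.33). Tdrd12, a Tudor-domain gene of the piRNA pathway, had 60.1 ± 0.773 CPM (SD, n = 3) in Hp1α/βΔ/Δ against 136 ± 2.61 CPM (SD, n = 3) in Hp1αΔ/Δ ESCs (log2 −1.18).

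Markers of extraembryonic and mesodermal fate were next described from lists of known genes. In the trophoblast list 4 of 10 tested genes were called higher and none lower, against 2.16% and 2.03% of all tested genes. At an adjusted p under 0.05 alone 8 were higher and none lower, where 18% and 17.5% of all genes were. The median log2 fold change was 0.68. Besides Krt8 and Krt18 the called genes were Cdx2, the trophectoderm master regulator, and Hand1, a basic helix-loop-helix factor of trophoblast and heart. Cdx2 stayed at low levels, with 0.964, 0.699 and 0.971 CPM in Hp1α/βΔ/Δ and 0.271, 0.0433 and 0.14 CPM in Hp1αΔ/Δ libraries, and a log2 fold change of 2.49 (adjusted p = 0.00246). Hand1 had 10.3, 10.9 and 12.1 CPM in Hp1α/βΔ/Δ and 3.84, 3.07 and 3.6 CPM in Hp1αΔ/Δ libraries and a log2 fold change of 1.66. Tfap2c rose by 0.56, whereas Gata3 had −0.61 (adjusted p = 0.373). The summed level of the 13 listed genes was 603 to 618 CPM in Hp1α/βΔ/Δ and 279 to 285 CPM in Hp1αΔ/Δ libraries, to which Krt8 and Krt18 contributed most.

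The mesoderm list gave 4 genes called higher and 1 lower of 11 tested, against 2.16% and 2.03% of all genes, with a median of 0.78. Hand1, 1 of the 4, and Eomes are in the trophoblast list too. T (Brachyury), the factor of the primitive streak, had 4.01, 3.82 and 5.87 CPM in Hp1α/βΔ/Δ and 0.679, 0.26 and 0.374 CPM in Hp1αΔ/Δ libraries. No Hp1αΔ/Δ library exceeded 0.679 CPM and no Hp1α/βΔ/Δ library was below 3.82 CPM, a log2 fold change of 3.37 (SE 0.335, adjusted p = 6.92e-07). Wnt3, a ligand that induces the streak, had 4.21, 5.34 and 4.99 CPM in Hp1α/βΔ/Δ and 1.31, 1.12 and 1.07 CPM in Hp1αΔ/Δ libraries and a log2 fold change of 2.05. Gsc, a gene of the organizer, was called at 1.16 CPM against 0.273 CPM (log2 2.07, adjusted p = 0.00211). Bmp4 and Eomes rose by 0.73 and 0.78, below the fold threshold, and Kdr is the listed gene that fell. Neuroectoderm genes moved the other way, with 2 of 8 called lower, 7 lower at an adjusted p under 0.05, none higher and a median of −0.56. Of all genes 2.03% were called lower, and 17.5% were lower and 18% higher at that adjusted p. Neurod1, a neuronal differentiation factor, had 4.11, 4.52 and 5.45 CPM in Hp1α/βΔ/Δ and 16.2, 15.4 and 12.9 CPM in Hp1αΔ/Δ libraries and a log2 fold change of −1.66. Sox1, an early neural marker, fell by 1.28 from 2.45 ± 0.387 CPM (SD, n = 3), and Pax6 fell by 0.87. In the primitive endoderm list 1 of 13 tested genes was called. This was Sox7, with 2.49, 1.27 and 1.16 CPM in Hp1α/βΔ/Δ and 0.724, 0.779 and 0.561 CPM in Hp1αΔ/Δ libraries, and it was no longer called without Hp1α/βΔ/Δ replicate 1 (log2 0.82, adjusted p = 0.152) or without Hp1αΔ/Δ replicates 1 or 3 (1.27 and 1.11). The summed primitive endoderm level was 1077 to 1084 CPM in Hp1α/βΔ/Δ and 1096 to 1107 CPM in Hp1αΔ/Δ libraries.

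**Figure D3:**
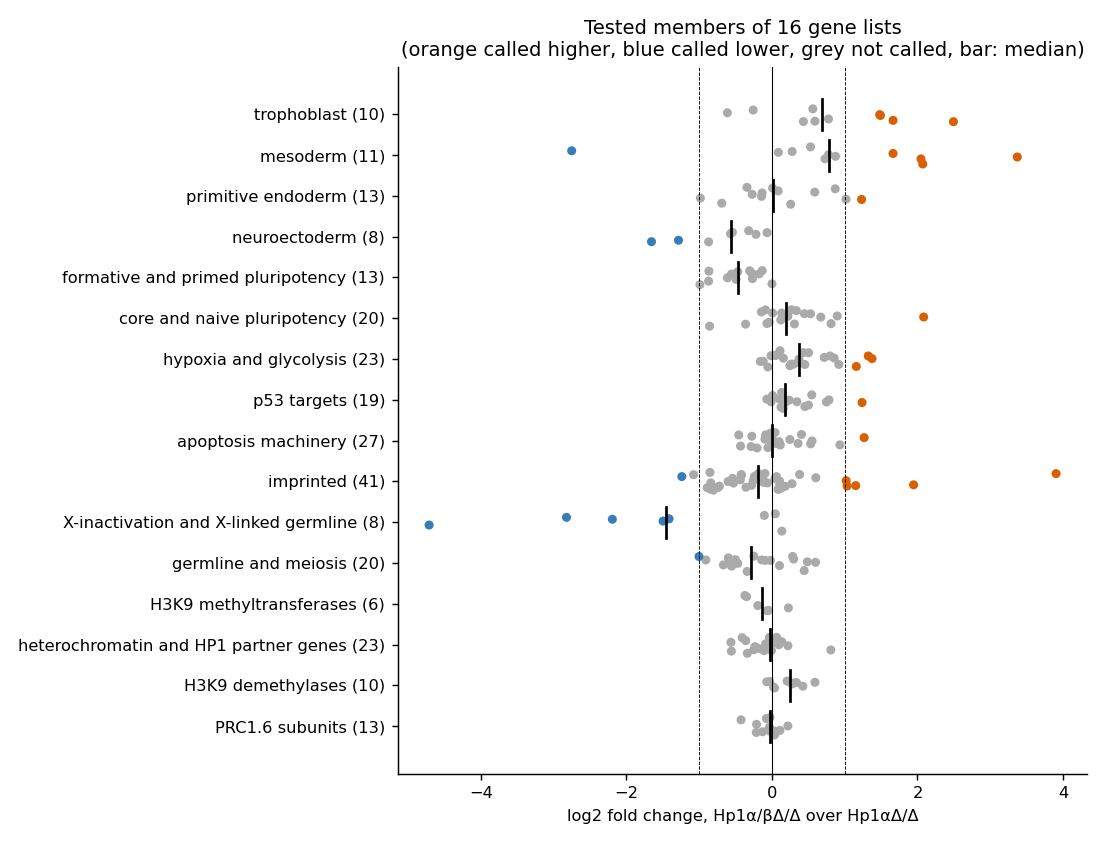
Log2 fold change of Hp1α/βΔ/Δ over Hp1αΔ/Δ ESCs (horizontal axis) for each tested member of 16 gene lists (rows, with the number of tested members). Orange points were called higher, blue points lower and grey points were not called, black bars are medians, and dashed lines mark 1 and −1. Medians lie at 0.68 for trophoblast, −0.47 for formative and primed pluripotency and −1.46 for X-linked germline genes, and close to 0 for apoptosis and PRC1.6 genes.

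Pluripotency genes stayed high and shifted between the naive and the formative sets. Pou5f1, which encodes OCT4, had 826, 847 and 832 CPM in Hp1α/βΔ/Δ and 861, 846 and 866 CPM in Hp1αΔ/Δ libraries. The groups overlapped, with a log2 fold change of −0.04 (adjusted p = 0.272). Nanog had 379.8, 379 and 368 CPM in Hp1α/βΔ/Δ and 233, 234 and 239.8 CPM in Hp1αΔ/Δ libraries. All 3 Hp1α/βΔ/Δ libraries were above all Hp1αΔ/Δ libraries, with a log2 fold change of 0.67 (adjusted p = 1.03e-10). Sox2 rose by 0.12 (adjusted p = 0.00907). Tbx3, a T-box factor of the naive network, was the only called gene of 20 core and naive genes. It had 35.5, 34.4 and 36.4 CPM in Hp1α/βΔ/Δ and 8.64, 8.57 and 7.8 CPM in Hp1αΔ/Δ libraries and a log2 fold change of 2.09 (adjusted p = 5.89e-12). At an adjusted p under 0.05 alone 13 of the 20 were higher and 3 lower, where 18% and 17.5% of all genes were. Prdm14, a repressor that guards the naive state, rose by 0.90, Klf4 by 0.81, Esrrb by 0.53 and Tfcp2l1 by 0.45, whereas Fbxo15 fell by 0.86 and Dppa3 by 0.36. In the list of formative and primed genes 10 of 13 were lower at an adjusted p under 0.05 and none higher, with a median of −0.47, although none passed the fold threshold. Lef1 fell by 0.99, Tcf15 and Sox3 by 0.87 each, Foxd3 by 0.61 and Otx2 by 0.47. Leaving out Hp1αΔ/Δ replicate 1, or Hp1α/βΔ/Δ replicate 1 or 3, brought 1 or 2 of these 13 past the fold threshold. De novo DNA methyltransferases, which rise as ESCs leave the naive state, were lower as well. Dnmt3b fell by 0.56 from 934 to 635 CPM, Dnmt3l by 0.56 and Dnmt3a by 0.41, and the dioxygenase gene Tet2 rose by 0.81.

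Of 13 tested genes of Nodal and Lefty signalling, the TGF-β branch that patterns the early embryo, 6 were higher and 3 lower at an adjusted p under 0.05, where 18% and 17.5% of all genes were, and the median was −0.065. The ligand gene Nodal rose by 0.32, the inhibitor gene Lefty2 by 0.41 and the inhibitory Smad7 by 0.77, whereas Lefty1 fell by 0.18 and the ligand gene Gdf3 by 0.50.

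Imprinted genes, which are expressed from 1 parental allele, changed in both directions. Of 41 tested genes 5 were called higher and 1 lower, against 2.16% and 2.03% of all genes. At an adjusted p under 0.05 alone 8 were higher, near the 18% of all genes, and 19 lower, where 17.5% of all genes were, with a median of −0.19. H19 and Igf2, a growth factor gene, lie 72.6 kb apart on chromosome 7 and both rose. Igf2 had 124, 134 and 131 CPM in Hp1α/βΔ/Δ and 63.1, 65.6 and 61.3 CPM in Hp1αΔ/Δ libraries and a log2 fold change of 1.03. Plagl1, a zinc finger gene that restrains growth, had 21.3, 18.2 and 16.3 CPM in Hp1α/βΔ/Δ and 9.32, 7.14 and 8.6 CPM in Hp1αΔ/Δ libraries and a log2 fold change of 1.15. Asb4 rose by 1.02 on the log2 scale. Airn, the noncoding RNA antisense to Igf2r, had 1.17, 1.32 and 1.57 CPM in Hp1α/βΔ/Δ and 0.679, 0.0433 and 0.327 CPM in Hp1αΔ/Δ libraries and a log2 fold change of 1.95 (adjusted p = 0.00901), with Igf2r at 0.28. The 2 genes overlap on opposite strands, and the sources do not say whether counting used strand, so their reads may not be told apart. Magel2 was the gene called lower, with 2.89, 3.58 and 2.73 CPM in Hp1α/βΔ/Δ and 6.51, 7.31 and 7.99 CPM in Hp1αΔ/Δ libraries and a log2 fold change of −1.24. At the Dlk1-Meg3 locus all 5 tested genes were lower. Meg3 fell by 0.81 from 457 to 261 CPM, Rian by 0.85, Mirg by 0.84, Rtl1 by 0.72 and Dlk1 by 0.42, each at an adjusted p under 0.05. Peg10 and Cdkn1c fell by 0.85 and 0.89.

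In the list of glycolysis and hypoxia response genes 3 of 23 tested genes were called higher and none lower, where 2.16% and 2.03% of all genes were. At an adjusted p under 0.05 alone 17 were higher and 2 lower, where 18% and 17.5% of all genes were, with a median of 0.37. Vegfa, the angiogenic growth factor, had 55.3, 54.9 and 58.6 CPM in Hp1α/βΔ/Δ and 22.1, 23.2 and 22.1 CPM in Hp1αΔ/Δ libraries. No values overlapped, and the log2 fold change was 1.32 (SE 0.0583, adjusted p = 3.91e-11). Ndufa4l2, a mitochondrial protein gene induced by hypoxia, had 9.94, 14.1 and 13.6 CPM in Hp1α/βΔ/Δ and 4.12, 4.67 and 5.79 CPM in Hp1αΔ/Δ libraries and a log2 fold change of 1.38. Below the fold threshold Ddit4, an inhibitor of mTORC1, rose by 0.92, Ankrd37 by 0.85, the prolyl hydroxylase gene Egln3 by 0.80 and Bnip3, a mitophagy receptor gene, by 0.72. Enzymes of glycolysis changed less, with Aldoc at 0.50, Hk1 at 0.45, Gpi1 at 0.43, Aldoa at 0.37, Pgk1 at 0.26 and no change called in the test for Ldha (−0.01), Gapdh (0.05), Eno1 (0.05) and Pkm (−0.06). Slc2a1 and Pdk1 fell by 0.12 and 0.16.

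Many of these genes moved in the other direction where Hp1α was present. In the same list the median on loss of Hp1β from wild-type ESCs was −0.38, with 15 genes lower and 6 higher at an adjusted p under 0.05, and the interaction was positive for 15 and negative for 4 of the 23. Of all genes 26.4% were lower and 24.7% higher at that threshold, and the interaction was positive for 23.4% and negative for 21.6%. Vegfa had 13.3 ± 2.61 CPM (SD, n = 3) in Hp1βΔ/Δ and 39.8 ± 2.35 CPM (SD, n = 3) in wild-type ESCs, a log2 fold change of −1.58. The 2 responses differed by 2.90 on the log2 scale (SE 0.129, adjusted p of the interaction = 1.32e-11). Egln3 had 8.02 ± 0.719 CPM (SD, n = 3) and 54.3 ± 0.631 CPM (SD, n = 3) there, and the difference was 3.56 (SE 0.0973, adjusted p = 1.92e-14). Ndufa4l2 had 1.04 ± 0.419 CPM (SD, n = 3) and 4.14 ± 0.406 CPM (SD, n = 3), with a difference of 3.36. Bnip3 was 1.86 lower in Hp1βΔ/Δ than in wild-type ESCs, Ankrd37 1.32 and Ddit4 0.83. The starting levels differed, since Vegfa, Egln3, Bnip3, Ankrd37 and Ddit4 were lower in Hp1αΔ/Δ than in wild-type ESCs. Vegfa had 22.6 ± 0.681 CPM (SD, n = 3) and Egln3 32.3 ± 2.55 CPM (SD, n = 3) in Hp1αΔ/Δ ESCs. Ndufa4l2 was not lower there, at 4.88 ± 0.857 CPM (SD, n = 3). In Hp1α/βΔ/Δ ESCs Egln3 had 56.2 ± 0.874 CPM (SD, n = 3), close to its wild-type level. Slc2a3 did not reverse, since it rose on both occasions, by 1.16 and 1.06. The means of Pgam1 and Pfkl were also higher on both occasions, and those of Pdk1 were lower on both.

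**Figure D4:**
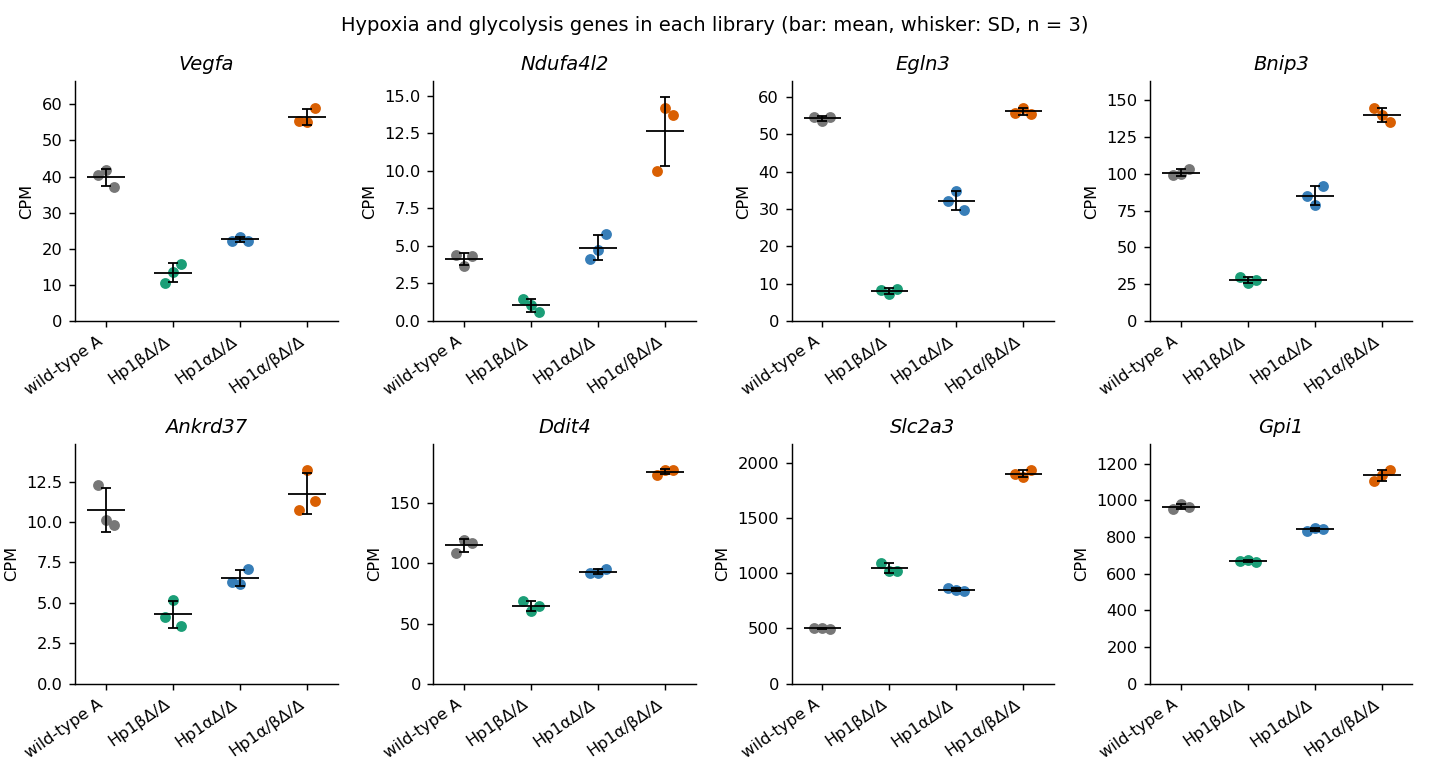
Level in CPM (linear axis from 0) of 8 genes of the hypoxia and glycolysis list in wild-type A, Hp1βΔ/Δ, Hp1αΔ/Δ and Hp1α/βΔ/Δ libraries. Points are libraries, bars means and whiskers SD (n = 3). Vegfa, Ndufa4l2, Egln3, Bnip3, Ankrd37, Ddit4 and Gpi1 have their lowest means in Hp1βΔ/Δ and their highest in Hp1α/βΔ/Δ ESCs, where values of Ankrd37 overlap those of wild-type ESCs, whereas Slc2a3 is lowest in wild-type ESCs.

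The promoters of 3 of these genes are shown as examples picked among those that moved in opposite directions in the 2 backgrounds. Other listed genes, among them Vegfa, Ankrd37, Ndufa4l2 and Gpi1, moved in this way too and are not shown. Hypoxia-inducible factors are known to bind a short core, of which ACGTG is 1 form, and capitals mark this core on either strand. A CACGTG holds a match on each strand, and the 2 overlap. Sequences are those of RefSeq for GRCm38.p6, in the direction of transcription, from 250 bases before to 50 bases after the start of transcription.
Egln3 (chr12:54203825-54204124, minus strand): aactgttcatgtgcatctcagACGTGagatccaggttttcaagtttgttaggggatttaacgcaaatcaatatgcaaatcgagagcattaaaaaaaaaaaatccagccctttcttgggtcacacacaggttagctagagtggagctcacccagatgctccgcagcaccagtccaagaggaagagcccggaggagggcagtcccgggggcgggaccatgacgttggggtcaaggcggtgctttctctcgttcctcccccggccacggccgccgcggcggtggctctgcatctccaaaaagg
Bnip3 (chr7:138909457-138909756, minus strand): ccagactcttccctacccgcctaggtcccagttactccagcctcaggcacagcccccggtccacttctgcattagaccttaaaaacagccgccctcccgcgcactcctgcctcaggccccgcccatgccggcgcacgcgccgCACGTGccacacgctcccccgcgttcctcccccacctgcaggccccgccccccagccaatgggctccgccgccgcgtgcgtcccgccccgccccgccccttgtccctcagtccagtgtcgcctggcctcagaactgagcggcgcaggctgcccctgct
Ddit4 (chr10:59951721-59952020, minus strand): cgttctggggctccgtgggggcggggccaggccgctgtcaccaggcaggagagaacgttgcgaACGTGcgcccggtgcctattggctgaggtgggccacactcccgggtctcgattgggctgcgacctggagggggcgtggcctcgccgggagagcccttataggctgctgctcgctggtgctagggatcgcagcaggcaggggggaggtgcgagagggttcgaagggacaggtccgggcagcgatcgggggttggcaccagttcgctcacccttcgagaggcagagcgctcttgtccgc
The core stood 229 bases before the start in Egln3 and 187 bases before it in Ddit4, and Bnip3 held a CACGTG. Of the 24 listed genes 22 had a promoter in the table, and 16 of them (72.7%) held the core in at least 1 window, where 21.8% of all 27025 genes with a promoter and 28.7% of the 11446 tested genes did. Windows with the core included those of Ldha and Gapdh, whose transcripts did not pass the test. The windows were not matched for base composition, and a match describes the letters and not a bound site. The list was made of genes already known from hypoxia or glycolysis. The share with the core thus describes the choice of the list and not the changes measured here.

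Genes of the p53 response and of apoptosis were examined because the study describes the growth of its double mutants. From flow cytometry it attributed their impaired growth to more apoptosis and not to a changed cell cycle. The RNA levels given here measure neither process directly. In the list of p53 targets 10 of 19 tested genes were higher at an adjusted p under 0.05 and none lower, against 18% and 17.5% of all genes, with a median of 0.18 and 1 gene called. Cdkn1a, the p21 inhibitor of cyclin-dependent kinases, had 42.4, 42 and 43.2 CPM in Hp1α/βΔ/Δ and 25.6, 26 and 22.4 CPM in Hp1αΔ/Δ libraries and rose by 0.78. Perp rose by 0.75, Bbc3, which encodes PUMA, by 0.55, Sesn2 by 0.50 and Mdm2 by 0.45. The called gene was Gdf15, at 2.104 CPM against 0.891 CPM, and it was not called without Hp1αΔ/Δ replicate 2 (log2 0.93, adjusted p = 0.0588). Trp53 itself had a log2 fold change of −0.02 (adjusted p = 0.756). Of 27 tested genes of the apoptosis machinery 5 were higher and 4 lower, with a median of −0.00019. Casp8, the initiator caspase of the death receptors, was called, with 4.77, 5.84 and 3.28 CPM in Hp1α/βΔ/Δ and 1.81, 1.69 and 2.29 CPM in Hp1αΔ/Δ libraries and a log2 fold change of 1.27. Apaf1 rose by 0.53 and the protective Mcl1 by 0.41, whereas Bok fell by 0.46. No gene of the cell cycle list was called, and 5 of 25 were higher and 10 lower at an adjusted p under 0.05. Ccnd3 and Rb1 rose by 0.62 and 0.74, and Ccnd1 and Mycn fell by 0.55 and 0.38.

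Genes of the H3K9 methylation system changed little. None of the 6 methyltransferase genes was called. Suv39h1, Setdb2 and Ehmt1 fell by 0.37, 0.35 and 0.19, Ehmt2 rose by 0.23, and Suv39h2 had −0.05 (adjusted p = 0.531). Of 10 tested H3K9 demethylase genes 6 were higher at an adjusted p under 0.05 and none lower, with a median of 0.24. For this list and those that follow, 18% of all genes were higher and 17.5% lower at that threshold. Kdm4b rose by 0.59 and Jmjd1c by 0.42. Among 23 heterochromatin and HP1 partner genes 3 were higher and 9 lower at that threshold, and none was called. Trim28, the corepressor that recruits SETDB1, fell by 0.23 from 1619 to 1378 CPM, Morc2a by 0.34, Pphln1 of the HUSH complex by 0.36 and the lamin B receptor gene Lbr by 0.25, and Atrx rose by 0.22. PRC1.6, the polycomb complex that silences germline genes in ESCs, had 2 of 13 subunit genes higher and 3 lower, near the shares of all genes. In the germline and meiosis list 2 of 20 tested genes were higher and 6 lower at an adjusted p under 0.05, with a median of −0.29. Hormad1, a meiotic axis gene, was the 1 called, at 1.96 CPM against 3.91 CPM, and it was no longer called without Hp1αΔ/Δ replicate 1 (log2 −0.87) or without Hp1α/βΔ/Δ replicates 2 or 3 (−0.87 and −0.95). None of the 20 genes listed for the 2-cell stage passed the filter on counts in these 6 libraries.

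The same mutation in cells that keep Hp1α was then set beside this comparison. In Hp1βΔ/Δ against wild-type ESCs 1442 of 15845 tested genes were called (9.1%), 435 higher (2.75%) and 1007 lower (6.36%), and 8100 passed without the fold threshold (51.1%). Of these, 1319 were tested in Hp1α/βΔ/Δ against Hp1αΔ/Δ ESCs, and 186 of them were called there in the same direction, which is 14.1% of the 1319 and 28.1% of the 661 genes called on loss of Hp1β without Hp1α. Another 35 were called in the opposite direction, 12 of 386 genes that rose with Hp1α (3.11%, where 2.03% of all genes were called lower) and 23 of 933 that fell (2.47%, where 2.16% were called higher). Of 386 genes that rose in Hp1βΔ/Δ ESCs 80 were also called higher without Hp1α (20.7%, where 2.16% of all genes were), and of 933 that fell 106 were also called lower (11.4%, where 2.03% of all genes were). Across 15368 genes tested in both comparisons, which are not independent replicates, Pearson's r of the log2 fold changes was 0.18 and Spearman's rho 0.027.

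Several of the strongest changes had the same direction in both backgrounds. With 3 libraries for each genotype, an interaction that did not pass the test does not show that 2 changes were equal. Usp26 fell by 4.71 without and by 4.51 with Hp1α, where it had 7.44 ± 0.556 CPM (SD, n = 3) in Hp1βΔ/Δ and 170.0 ± 3.47 CPM (SD, n = 3) in wild-type ESCs. The difference of −0.20 did not pass the test (adjusted p of the interaction = 0.169). H19 rose by 3.91 and 4.51, a difference of −0.61 (adjusted p = 0.109). Cyp2b23 rose by 3.20 and 2.76 (interaction 0.44, adjusted p = 0.071), Nefm by 2.57 and 2.97 (interaction −0.40, adjusted p = 0.0817) and Arntl2 by 2.32 and 2.14 (interaction 0.18, adjusted p = 0.304). Their levels were not alike, since H19 reached 7.82 ± 1.21 CPM (SD, n = 3) in Hp1βΔ/Δ but 27.8 ± 0.856 CPM (SD, n = 3) in Hp1α/βΔ/Δ ESCs. Krt8 and Krt18 rose more in the wild-type background (1.92 and 1.82) and started lower there, at 56.1 ± 1.18 CPM (SD, n = 3) and 42.5 ± 3.27 CPM (SD, n = 3). Their interactions were −0.43 (adjusted p = 0.000164) and −0.34 (adjusted p = 0.00342).

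The interaction, that is the change on loss of Hp1β without Hp1α minus the change with it, passed an adjusted p under 0.05 for 7432 of 16512 tested genes (45%), 3868 positive and 3564 negative. With an absolute value over 1 there were 1573 (9.53%), 1119 positive (6.78%) and 454 negative (2.75%). Of the 661 genes called on loss of Hp1β without Hp1α 297 passed it (44.9%), close to the share of all genes. Ccdc170 had the largest positive value among the named genes, 4.33, since it fell by 4.30 in Hp1βΔ/Δ ESCs and had 0.02 (adjusted p = 0.95) without Hp1α. Zc3h6, a zinc finger gene, had 7.61, 6.99 and 6.33 CPM in Hp1α/βΔ/Δ and 3.71, 3.81 and 2.76 CPM in Hp1αΔ/Δ libraries and had 0.537 ± 0.132 CPM (SD, n = 3) in Hp1βΔ/Δ against 4.94 ± 0.338 CPM (SD, n = 3) in wild-type ESCs (interaction 4.21, adjusted p = 3.23e-09). Its rise of 1.02 was not called without Hp1αΔ/Δ replicate 3 (0.89) or Hp1α/βΔ/Δ replicate 1 (0.96). Tarm1 had −0.93 (adjusted p = 0.051) against −4.66. In the negative direction, Id3, a target of BMP signalling that blocks differentiation, had 49.6 ± 0.827 CPM (SD, n = 3) in Hp1βΔ/Δ against 9.44 ± 0.168 CPM (SD, n = 3) in wild-type ESCs and a log2 fold change of −0.27 without Hp1α (interaction −2.66, adjusted p = 3.95e-12). The latter did not pass the test without Hp1αΔ/Δ replicate 1 or 3 or Hp1α/βΔ/Δ replicate 1 or 3 (adjusted p = 0.0614 to 0.0791). Hes3, Fam167a, Notumos and Neurog1 had interactions of −3.62, −2.81, −2.79 and −2.64. Fam167a, Notumos and Neurog1, a proneural factor, were called in opposite directions, with falls of 1.12, 1.18 and 1.45 without Hp1α and rises of 1.68, 1.61 and 1.18 with it. Notumos fell by 0.999 and was not called without Hp1α/βΔ/Δ replicate 2. Hes3 was not called in the 6 libraries (−0.66, adjusted p = 0.247), but was called without Hp1α/βΔ/Δ replicate 3 (−1.31, adjusted p = 0.0369).

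**Figure D5:**
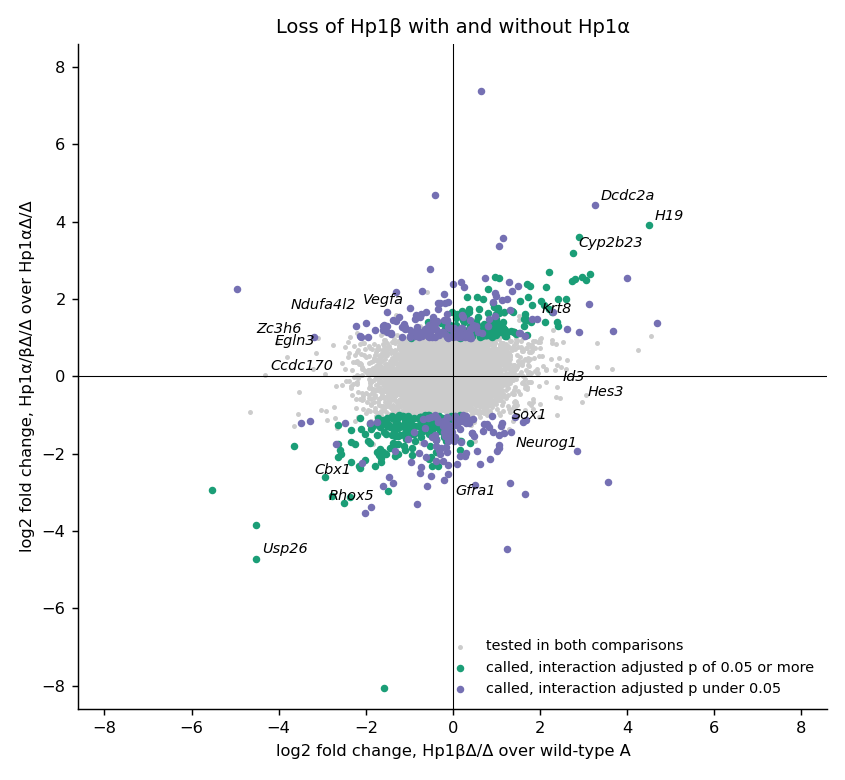
Log2 fold change on loss of Hp1β without Hp1α (Hp1α/βΔ/Δ over Hp1αΔ/Δ, vertical axis) against that with Hp1α (Hp1βΔ/Δ over wild-type A, horizontal axis) for 15368 genes tested in both. Green points are genes called on the vertical axis whose interaction did not pass an adjusted p of 0.05, purple points those whose interaction did, and grey points the rest. Usp26, H19 and Cyp2b23 lie near the diagonal, and Vegfa, Ndufa4l2, Zc3h6, Sox1 and Neurog1 lie in the quadrants of opposite sign.

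Formative genes also differed between the backgrounds. Their median was −0.47 without and 0.47 with Hp1α, and the interaction passed for 10 of 13, all negative, where it was negative for 21.6% of all genes. Otx2, the factor that starts formative conversion, had a log2 fold change of −0.47 without Hp1α and 1.26 with it, and for Tcf15 the values were −0.87 and 0.51. Both started higher in Hp1αΔ/Δ than in wild-type ESCs. Otx2 had 33.8 ± 2.33 CPM (SD, n = 3) in Hp1αΔ/Δ, 24.4 ± 1.12 CPM (SD, n = 3) in Hp1α/βΔ/Δ and 6.04 ± 1.04 CPM (SD, n = 3) in wild-type ESCs. For Tcf15 these were 61.3 ± 1.14, 33.4 ± 1.99 and 38.3 ± 1.49 CPM (SD, n = 3). In Hp1α/βΔ/Δ ESCs Otx2 thus lay above and Tcf15 below wild-type ESCs. For trophoblast genes the median was 0.68 without and 1.19 with Hp1α, and 8 and 6 genes were higher at an adjusted p under 0.05. For mesoderm genes it was 0.78 and 1.47, with 6 and 5 genes higher and Kdr lower in both. Of all genes 18% were higher at that threshold without and 24.7% with Hp1α. Among X-linked germline genes the medians were −1.46 and −1.002. Rhox5 fell more without Hp1α (interaction −1.21, adjusted p = 1.13e-05), but from 52.6 ± 0.737 CPM (SD, n = 3) in Hp1αΔ/Δ against 15.7 ± 1.77 CPM (SD, n = 3) in wild-type ESCs, to 7.39 ± 0.77 CPM (SD, n = 3) and 5.13 ± 1.02 CPM (SD, n = 3). Gfra1 was likewise high in Hp1αΔ/Δ ESCs only, with 21.3 ± 1.46 CPM (SD, n = 3) there, 3.31 ± 0.613 CPM (SD, n = 3) in Hp1α/βΔ/Δ, 2.97 ± 0.156 CPM (SD, n = 3) in Hp1βΔ/Δ and 3.39 ± 0.501 CPM (SD, n = 3) in wild-type ESCs.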

How the data were processed

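RNA-seq was made by the study from 3 biological replicates of each ESC line. The labels and the study's methods name different TruSeq kits, and whether counting used strand is not given in the sources used here. Per the submitters' processing notes, TopHat2 2.1.1, RSEM and edgeR were used with GRCm38.p5. Each deposited table pairs a mutant with wild-type ESCs and holds for 55487 genes the expected counts of RSEM, which are not normalized and need not be whole. It also holds TPM computed by the authors, fold changes and p-values. The authors' fold changes and p-values from DESeq2 were not used, nor were 18 columns of other samples in the tables read.

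Columns of Hp1α/βΔ/Δ and Hp1αΔ/Δ libraries were joined by gene identifier, and expected counts were rounded. Positions were taken from GENCODE M21 (GRCm38), to which 55227 genes matched. The fit used edgeR 4.0.16 (R 4.3.3, limma 3.58.1) on the 6 libraries with filterByExpr at a minimum count of 10, TMM, estimateDisp, glmQLFit and glmQLFTest. The interaction was fitted over 12 libraries. Genes with few counts in all 6 libraries were not tested, and depth limits calls near that minimum. Alternatives were DESeq2 1.42.0, RLE size factors, no filter, at least 10 counts in every library, a fit of all 4 groups, a replicate block, limma on log2(TPM + 1), no fold threshold and each library left out. The gene lists and the members named were chosen with earlier results of these data known. Genes were named by rule: the HP1 genes and Setdb1; the 12 largest rises and falls among called genes with at least 5 CPM in the higher group, no overlap of groups and a symbol not of a predicted gene; 3 predicted genes and the 5 most abundant called genes of each direction; up to 4 called members of each list; Pou5f1, Nanog and Sox2; and the 5 largest interactions of each sign among genes with at least 5 CPM in the highest of the 4 groups and a symbol not of a predicted gene. List members named without a call are examples chosen after their values were seen. Replicate numbers did not pair libraries, since Pearson's r of same-numbered deviations was −0.031 to 0.0058. Within a genotype every pair of libraries differed by more than sampling noise (chi-square per degree of freedom 2.83 to 5.07). The edgeR fits of Hp1α/βΔ/Δ against Hp1αΔ/Δ ESCs and of the interaction were also run on simulated counts with known changes. The other steps were not simulated. Results of some genes are not reported here.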

Additional observations from a re-analysis of the deposited data

Results flagged for a closer look

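The change on loss of Hp1β differed between cells without and with Hp1α for 36 of the named genes, by the test of the difference itself over 12 libraries in edgeR and with an absolute difference over 1 on the log2 scale. Adjusted p-values of the differences were 1.92e-14 to 0.0483. Values are the log2 change without Hp1α minus that with it, and for 10 of the 36 the rule that named them used this difference. The others were named by rules that used the change without Hp1α, which is itself a part of the difference. That choice favours a difference of the same sign as the change, so these signs are descriptions.

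Differences were positive for 14 genes. Of genes named for their rise, Dlx3 had 2.04, Slc23a1 1.82, Adgrg6 1.20, Dcdc2a 1.15, Tbx3 1.09 and 1700095A21Rik 1.38. Dcdc2a rose in both backgrounds, with 3.01 ± 0.584 CPM (SD, n = 3) in Hp1βΔ/Δ and 0.306 ± 0.0927 CPM (SD, n = 3) in wild-type ESCs. Of list members, Ndufa4l2 had 3.36, Vegfa 2.90, T 2.32 and Gdf15 1.66. The others were Ccdc170 with 4.33, Zc3h6 with 4.21, Tarm1 with 3.73 and Egln3 with 3.56.

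Negative differences were found for the other 22 genes. Of genes named for their fall, Gfra1 had −2.49, Nxf3 −2.25, Gbp4 −1.75, Pnma5 −1.54, Cdh9 −1.52, Kdr −1.38, Rhox5 −1.21 and Selenop −1.15. The predicted genes Gm48551, Gm14565 and 4930586N03Rik had −4.69, −2.87 and −2.35. Among list members Sox1 had −2.39, Magel2 −2.02, Xlr3a −1.96, Sox7 −1.39, Neurod1 −1.27 and Col5a2 −1.26. The remaining genes were Hes3 with −3.62, Fam167a with −2.81, Notumos with −2.79, Id3 with −2.66 and Neurog1 with −2.64.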

How the results depend on the processing

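Of the 661 called genes, 611 remained under the replicate block (630 called), 547 with DESeq2 (568 called) and 659 with RLE size factors. Where 10 counts were required of each library 419 genes were called (218 higher and 201 lower), fewer genes being tested. With limma on log2 TPM 199 were called (109 and 90). Of the 661 genes, 413 remained called in the former fit and 156 in the latter. Without the fold threshold 5592 were called (2843 and 2749). Asking an absolute interaction over 1 left 1573 genes (1119 positive and 454 negative). Genes called in the same direction in both backgrounds came to 119 where 10 counts were required of each library, and called members of the lists to 17 with limma on log2 TPM. The median of chromosome X was −0.0800 in the latter fit and ranged from −0.107 to −0.066 as each library was left out, being −0.066 without Hp1αΔ/Δ replicate 2 and −0.078 without Hp1α/βΔ/Δ replicate 3. For Ccdc170, which was not called, the log2 fold change of 0.02 became −0.13 with limma on log2 TPM and ranged from −0.051 to 0.14 as each library was left out. With limma on log2 TPM 21 of the 77 named genes lost their call. They included Adgrg6, Kdr, Abca1, Gsc, Sox1, Sox7, Airn, Magel2, Plagl1, Gdf15, Casp8, Xlr3a and Col1a1. Of the 21, Abca1 (−0.40), Sox1 (−0.39), Sox7 (0.38), Gdf15 (0.80) and Xlr3a (−1.10) had an adjusted p over 0.05. The cause was not tested. Leaving out single libraries gave 606 to 649 called genes, and 511 to 539 of the 661 genes remained called. The replicate block changed no call of a named gene (interaction 7267 genes), and replicate numbers did not pair the libraries, with Pearson's r of same-numbered deviations at 0.0058, −0.0312 and −0.0001. Low counts limit the genes under 1 CPM.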

Other observations

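The following families were picked after their values were seen, and their counts are descriptions. Of all tested genes 2.16% were called higher and 2.03% lower. Of 16 tested serpin genes, which encode protease inhibitors, 5 were called higher and 1 lower in Hp1α/βΔ/Δ than in Hp1αΔ/Δ ESCs. The granzyme B inhibitor gene Serpinb9 had 3.75, 4.44 and 4.21 CPM in Hp1α/βΔ/Δ and 0.769, 0.649 and 1.03 CPM in Hp1αΔ/Δ libraries, while Serping1 fell by 1.01 on the log2 scale. Of 14 tested keratin genes 4 were called higher and 3 lower. Krt19 had 52.9, 50.7 and 51.8 CPM in Hp1α/βΔ/Δ and 23.7, 27.4 and 26 CPM in Hp1αΔ/Δ libraries, whereas the genes called lower, Krt9, Krt12 and Krt222, were at 1.28 to 1.59 CPM in Hp1αΔ/Δ ESCs. Clustered protocadherin genes gave 5 called lower and none higher of 24 tested, all at low levels, and their shared exons make values of single genes uncertain. Of 62 tested genes numbered Zfp900 to Zfp999, zinc finger genes with close copies, 2 were called higher and none lower, near the shares of all genes.

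Mitochondrially encoded transcripts were higher in Hp1α/βΔ/Δ ESCs. At an adjusted p under 0.05 in edgeR's test 11 of 15 tested genes rose and none fell, where 18% and 17.5% of all genes did, with a median log2 fold change of 0.43, and none passed the fold threshold. The ribosomal RNA gene mt-Rnr2 had 219, 194 and 193 CPM in Hp1α/βΔ/Δ and 111, 109.9 and 111 CPM in Hp1αΔ/Δ libraries, and mt-Co1, a subunit of cytochrome oxidase, 15257, 14450.1 and 14084 CPM in Hp1α/βΔ/Δ and 12152, 12558 and 12006 CPM in Hp1αΔ/Δ libraries. Of transcripts without a poly(A) tail or retained in the nucleus, Malat1 rose by 0.35 and Neat1 fell by 0.27.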
